A study of Drosophila melanogaster with 6 samples.

Results

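Transcript levels of 9 transcription factor genes that pattern the Drosophila melanogaster optic lobe or mark its neurons were measured by RNA-seq in 6 brain libraries with RNAi against DMAP1. The genes are Vsx1, Optix, Rx, bsh, run, vvl, toy, dac and sim. They were taken by symbol from the deposited table, where all 9 were found among 17490 gene rows. All 6 libraries were made from brains of 3rd instar larvae with 1 labelled genotype, DMAP1 RNAi, under the neuronal driver elav-Gal4. The protein made by DMAP1 is known as part of the Tip60 acetyltransferase and Domino remodelling machinery. The driver limits the model: it targets neurons, whereas several of the 9 genes are known from progenitors, and whole brains were sampled. The column names divide the libraries into DMAP1RNAi103734 and DMAP1RNAi63666, with 3 libraries each, and the labels do not say what these names stand for. Another 3 columns named as wild type match no sample in the labels used here and were not analysed, so no effect of the knockdown on these genes is given. All comparisons below are among RNAi brains. Nothing in the labels says whether the libraries came from separate animals, and the p-values below therefore reflect only how far these libraries scatter, which may be technical.

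The larval optic lobe grows from neuroepithelial crescents. In the outer crescent, bands of cells marked by different homeobox genes turn into neuroblasts, and each neuroblast then passes through a series of temporal factors. The neurons born in each spatial band and temporal window keep identity factors of their own. The lamina, which receives photoreceptor axons, arises at the lateral edge of the same epithelium. As background, Vsx1 marks the centre of the crescent, Optix the arms beside it and Rx the tips. The genes bsh, run, vvl and toy mark different sets of medulla neurons, and dac and sim mark lamina precursors. Most of these genes are also used elsewhere in the brain.

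Libraries held between 31518485 and 37236953 counts. DMAP1 itself stood at 12.4, 13.8 and 11.7 CPM (counts scaled to the library total, without length) in the DMAP1RNAi103734 libraries and at 7.08, 8.42 and 8.00 CPM in the DMAP1RNAi63666 libraries. Neuron markers (elav, nSyb, brp, Syt1, futsch), neuroblast markers (dpn, mira, ase, wor, grh) and glial markers (repo, Gs2, Gat, nrv2, wrapper) were present in every library. Levels between genes are given as TPM, which divides counts by gene length and scales each library to the same total. Ventral nerve cord Hox genes summed to 98.2 to 157 TPM over 5 genes, and tracheal and midline markers to 479 to 598 TPM over 10 genes. Of these 10, wrapper (mean 204 TPM), counted among the glial markers too, and sli (148 TPM) were the highest and btl (6.14 TPM) the lowest. The 10 eye disc markers summed to 108 to 122 TPM in the DMAP1RNAi103734 series and to 86.8 to 107 TPM in the other, and 4 of them, boss, ro, lz and the rhodopsin gene ninaE, had a mean under 1 TPM. The 7 fat body markers summed to 725 TPM in library 2 of the DMAP1RNAi103734 series and to 221 to 386 TPM in the other 5 libraries.

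The 9 genes covered a wide range of levels. The highest, toy, had a mean of 147.6 ± 14.3 TPM (SD, n = 6), followed by vvl at 39.3 ± 2.36, dac at 37.6 ± 2.85 and Optix at 35.7 ± 2.88 TPM. Lower levels were seen for run at 15.4 ± 0.767, Rx at 10.2 ± 2.37, Vsx1 at 7.31 ± 0.560, sim at 4.096 ± 0.717 and bsh at 3.56 ± 0.969 TPM. Of the 10211 genes kept by the filter on low counts, the median gene had a mean of 30.4 TPM, and 4 of the 9 genes lay above it. In bulk brain RNA, fewer cells of a type and less RNA per cell cannot be told apart. By mean TPM, toy lay at percentile 90.5 of the kept genes and bsh at percentile 17.1. All 9 passed the filter.

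**Figure D1:**
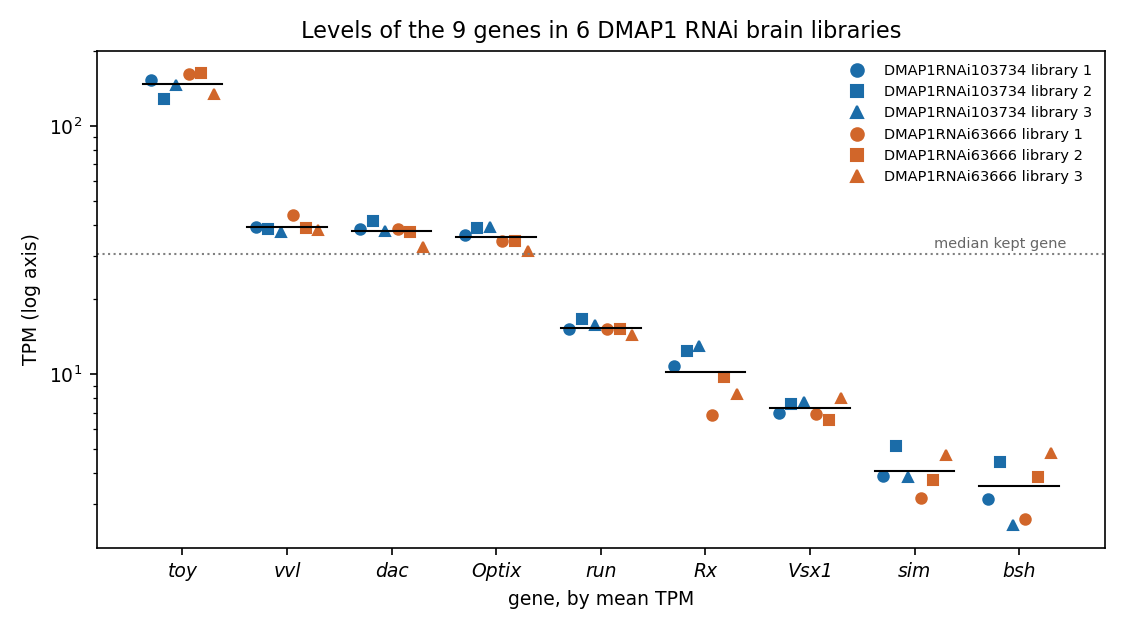
TPM (log axis) of each of the 9 genes in the 6 libraries; points are libraries, coloured by column-name series and shaped by library number, bars are means over the 6 libraries, and the dotted line is the median kept gene at 30.4 TPM. The gene toy sits above all others in every library, while vvl, dac and Optix overlap just above the dotted line and the other 5 genes lie below it.

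The order of levels was set against the spread between libraries. Within-library log2 TPM differences were tested for the 8 pairs of neighbours by an exact two-sided sign-flip permutation over 6 libraries, whose smallest p is 0.03125. Pooled over both series, toy exceeded vvl by 1.90 ± 0.12 (SD, n = 6), Optix exceeded run by 1.21 ± 0.06, run exceeded Rx by 0.63 ± 0.31 and Vsx1 exceeded sim by 0.85 ± 0.20. Each of these 4 differences had the same sign in 6 of 6 libraries, with non-overlapping ranges (exact permutation p = 0.03125, adjusted p = 0.0625 over 8 pairs). No pair passed 0.05 after adjustment. These 4 pairs had the smallest p that 6 libraries allow. Their adjusted p thus depends on how many of the 8 pairs reached it, not on the size of the differences. The neighbours were taken from the order of the same mean TPM values. The other 4 pairs had overlapping ranges. For vvl over dac the difference was 0.07 ± 0.13, with 4 of 6 libraries on the same side (exact permutation p = 0.3125, adjusted p = 0.3125). For dac over Optix it was 0.07 ± 0.07 in 5 of 6 libraries and for Rx over Vsx1 it was 0.45 ± 0.34 in 5 of 6 libraries (exact permutation p = 0.0625 and adjusted p = 0.0833 for each). For sim over bsh it was 0.23 ± 0.25 in 4 of 6 libraries (exact permutation p = 0.125, adjusted p = 0.143). The neighbours vvl, dac and Optix were thus not separated by their spread, nor were Rx and Vsx1, nor sim and bsh. Within series the difference of Rx over Vsx1 was 0.69 in DMAP1RNAi103734 and 0.20 in DMAP1RNAi63666, and that of vvl over dac was -0.03 and 0.16. Those of dac over Optix were 0.04 and 0.11, those of run over Rx were 0.40 and 0.86, and those of sim over bsh were 0.39 and 0.07.

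Among the spatial factors, Rx differed most between the series. This Paired-like homeobox gene (FBgn0020617, chromosome 2R, 20916753 to 20937030, plus strand, BDGP6) is the fly member of the retinal homeobox family. It stood at 10.8, 12.4 and 13.0 TPM in the DMAP1RNAi103734 libraries and at 6.86, 9.71 and 8.35 TPM in the DMAP1RNAi63666 libraries. Every DMAP1RNAi63666 library lay below every DMAP1RNAi103734 library. The mean was 17.1 CPM in the DMAP1RNAi103734 series and 11.5 CPM in the other, a log2 difference of -0.50 (SE 0.14, 95% interval -0.83 to -0.17), or a level 0.707 times as high. Across all 10211 genes this did not pass (edgeR quasi-likelihood test, adjusted p = 0.118). DESeq2, run as an alternative, put the same difference below 0.05 (adjusted p = 0.0372). Over the alternatives run in edgeR the difference ran from -0.63 to -0.38, with an adjusted p of at least 0.0512.

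Optix, a homeobox gene of the sine oculis family (FBgn0025360, chromosome 2R, 8031283 to 8042529, plus strand), stood at 36.4, 38.6 and 38.98 TPM in the DMAP1RNAi103734 libraries. In the DMAP1RNAi63666 libraries it stood at 34.4, 34.4 and 31.4 TPM, below the other series without overlap. After scaling by TMM, a factor that corrects each library for its composition, the series overlapped, and the log2 difference was -0.14 (SE 0.09, 95% interval -0.36 to 0.07, edgeR adjusted p = 0.367).

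Vsx1, a Paired-like homeobox gene with a CVC domain (FBgn0263511, chromosome X, 5594255 to 5612865, plus strand), was the flattest of the spatial factors. Its libraries stood at 6.999, 7.60 and 7.73 TPM in the DMAP1RNAi103734 series and at 6.95, 6.57 and 8.04 TPM in the other. The series overlapped, and the log2 difference was -0.01 (SE 0.12, 95% interval -0.28 to 0.25, edgeR adjusted p = 0.962).

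Of the neuron identity factors, bsh had the lowest level and the widest scatter. This homeobox gene (FBgn0000529, chromosome 2L, 19765776 to 19769067, minus strand) marks early-born medulla neurons and some lamina neurons. It was counted 93, 136 and 73 times in the DMAP1RNAi103734 libraries, or 3.15, 4.43 and 2.47 TPM. In the DMAP1RNAi63666 libraries it was counted 69, 117 and 153 times, or 2.62, 3.87 and 4.83 TPM. High and low libraries occurred in both series. The exact 95% Poisson interval of the lowest CPM, 1.70 to 2.72 in library 3 of the DMAP1RNAi103734 series, lay below that of the highest, 3.48 to 4.81 in library 3 of the other, so the scatter exceeded counting error. Its log2 difference between the series was 0.20 (SE 0.30, 95% interval -0.48 to 0.89, edgeR adjusted p = 0.694).

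The Runt-domain gene run (FBgn0003300, chromosome X, 20690670 to 20697321, plus strand), a pair-rule segmentation gene that is used again in neurons, stood at 15.24, 16.7 and 15.9 TPM in the DMAP1RNAi103734 series. The DMAP1RNAi63666 libraries held 15.22, 15.2 and 14.4 TPM, so that the highest of them nearly met the lowest of the other series. The series overlapped after TMM scaling. The log2 difference was -0.05 (SE 0.10, 95% interval -0.27 to 0.17, edgeR adjusted p = 0.778).

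The POU homeobox gene vvl (FBgn0086680, chromosome 3L, 6790158 to 6794941, plus strand, 1 exon block), also known from tracheal cells, had the smallest scatter of the 9 in CPM, though not after TMM scaling (4.61% and 9.11%). It stood at 39.1, 38.6 and 37.2 TPM in the DMAP1RNAi103734 libraries and at 43.9, 38.9 and 38.2 TPM in the other libraries. Library 1 of the DMAP1RNAi63666 series stood apart from the other 5. The log2 difference was 0.12 (SE 0.10, 95% interval -0.11 to 0.35, edgeR adjusted p = 0.475).

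The Pax6 gene toy (FBgn0019650, chromosome 4, 989725 to 1007922, plus strand), which acts upstream of ey in eye development and is expressed in mushroom body and medulla neurons, made up 49.1% of the summed mean TPM of the 9 genes. It stood at 152.5, 127.8 and 145.5 TPM in the DMAP1RNAi103734 series and at 162.1, 162.5 and 134.8 TPM in the other. The series overlapped, and the log2 difference was 0.16 (SE 0.12, 95% interval -0.12 to 0.44, edgeR adjusted p = 0.441).

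Of the lamina factors, dac (FBgn0005677, chromosome 2L, 16466512 to 16485998, minus strand), a SKI/SNO-related nuclear factor that is also used in the eye disc, leg disc and mushroom body, stood at 38.2, 41.3 and 37.8 TPM in the DMAP1RNAi103734 libraries. Levels were 38.4, 37.2 and 32.5 TPM in the DMAP1RNAi63666 libraries, of which library 3 was the lowest of all 6. The log2 difference was -0.07 (SE 0.11, 95% interval -0.32 to 0.18, edgeR adjusted p = 0.71).

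The bHLH-PAS gene sim (FBgn0004666, chromosome 3R, 13057755 to 13078124, plus strand), the master regulator of midline cells in the embryo, stood at 3.88, 5.14 and 3.87 TPM in the DMAP1RNAi103734 libraries. In the DMAP1RNAi63666 libraries it stood at 3.17, 3.77 and 4.74 TPM. Library 2 of the former and library 3 of the latter were highest, as in bsh. The log2 difference was -0.11 (SE 0.19, 95% interval -0.54 to 0.33, edgeR adjusted p = 0.753).

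Over the 9 genes, edgeR called 0 between the series at an adjusted p of 0.05, where 1.55% of all tested genes were called. At an unadjusted p of 0.05 it was 1 of 9, Rx, against 24.6% of all tested genes. DESeq2 called 1 of 9, again Rx, against 9.23% of the genes to which it gave an adjusted p. On TMM-scaled values 1 of 9, Rx, was lower without overlap in the DMAP1RNAi63666 series, against 16.5% of all tested genes, and 0 of 9 were higher without overlap, against 17.0%. The share of the 9 genes past each criterion was thus not above that of all genes except by DESeq2, where it rests on Rx alone. Their median log2 difference was -0.05 against 0.00 over all tested genes, with 6 of 9 below 0. This median was 0.01 without library 2 of the DMAP1RNAi103734 series and 0.00 without library 3 of the DMAP1RNAi63666 series. The 95% interval of bsh reached 0.89 log2 units and that of sim -0.54, so differences up to those bounds were not excluded for these genes.

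**Figure D2:**
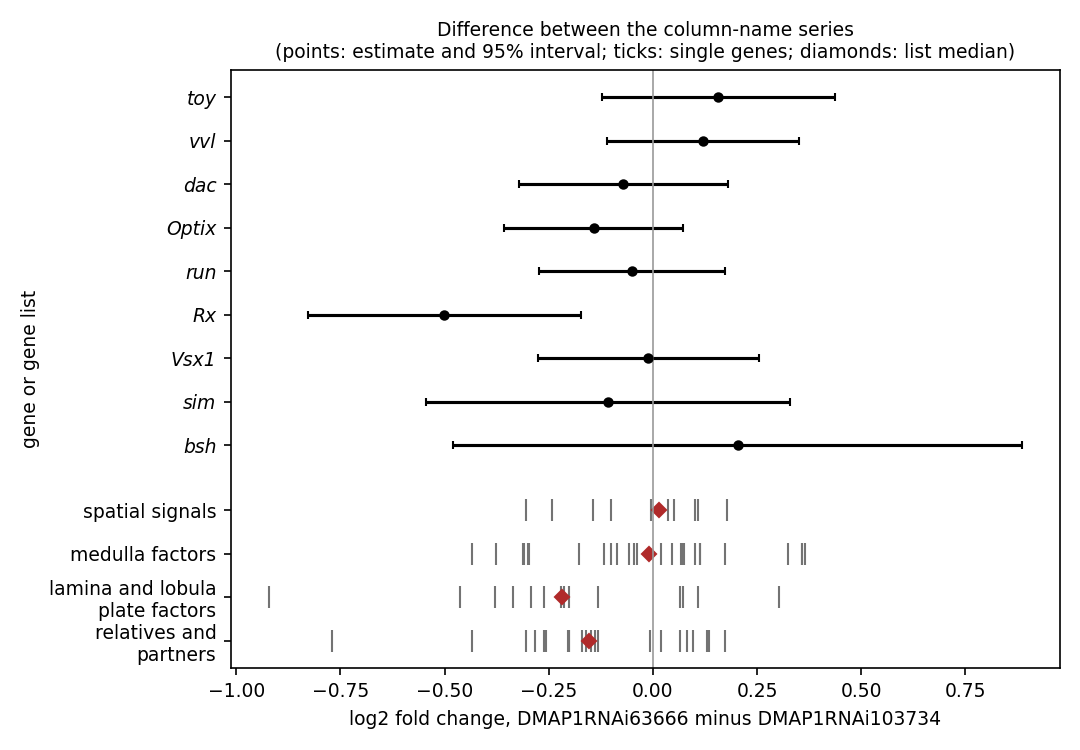
Log2 fold change between the column-name series, DMAP1RNAi63666 minus DMAP1RNAi103734; black points with bars are the 9 genes with 95% intervals from edgeR, grey ticks are single genes of 4 lists of related genes, and red diamonds are list medians. The interval of Rx lies below 0, those of the other 8 genes include 0, and the medians of the lamina list and the relatives lie left of 0.

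Scatter over the 6 libraries differed among the 9 genes. The coefficient of variation of CPM was 28.0% for bsh, 25.2% for Rx and 19.1% for sim, and between 4.61% (vvl) and 9.89% (Optix) for the other 6. Counting alone would give 9.67% for bsh, 4.50% for Rx and 6.81% for sim. The scatter was thus 2.90 times that of counting for bsh and 5.59 times for Rx. The largest ratio, 8.08, was that of toy, whose counts of 7642 to 9586 leave little counting error. Within each series bsh scattered by 31.6% and 30.0%, whereas Rx scattered by 11.8% and 19.5%, less than over both series. Set beside the value that edgeR fits for genes of the same abundance, the biological coefficient of variation of bsh was 26.8% against 27.3% and that of Rx 13.4% against 14.4%. Because edgeR draws the value of each gene towards that fit, their closeness cannot decide whether either scattered more than genes of like abundance.

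Deviations from each gene's own mean did not run in parallel over the 9 genes. In library 2 of the DMAP1RNAi103734 series, where fat body markers summed highest, bsh lay 0.35, sim 0.34 and Rx 0.32 log2 units above their means, while toy lay 0.21 units below. In library 3 of the DMAP1RNAi63666 series bsh lay 0.44 units above its mean, whereas Rx, dac and Optix lay 0.29, 0.24 and 0.22 units below theirs. In library 1 of that series Rx lay 0.45 and bsh 0.31 units below, and vvl and toy 0.24 and 0.22 units above. Mitochondrial genes took 10.9% of counts in that library and 8.85% and 8.18% in the other DMAP1RNAi63666 libraries, against 6.98%, 6.88% and 7.10% in the DMAP1RNAi103734 series. This share was thus higher without overlap in the series where Rx was lower. All 5 neuron markers and all 5 ventral nerve cord Hox genes were lowest in library 2 of the DMAP1RNAi103734 series, against 21.5% of all tested genes. Each of them was highest in library 1 of the DMAP1RNAi63666 series, against 29.5% of all tested genes. The part of neuron, nerve cord and fat body markers and of mitochondrial RNA in these values was not tested. Without library 2 of the DMAP1RNAi103734 series the log2 difference of Rx was -0.47 (edgeR adjusted p = 0.265), and without library 1 of the DMAP1RNAi63666 series it was -0.41 (edgeR adjusted p = 0.19). Without both libraries, a choice made after these values were seen, Rx differed by -0.38 (edgeR adjusted p = 0.25), bsh by 0.65 in place of 0.20 (edgeR adjusted p = 0.25), sim by 0.15 in place of -0.11, toy by 0.02 in place of 0.16 and vvl by 0.03 in place of 0.12. Thus the difference of bsh grew, that of sim changed sign and those of Rx, toy and vvl shrank, and edgeR called none either way. The median of the 9 genes was then 0.00.

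**Figure D3:**
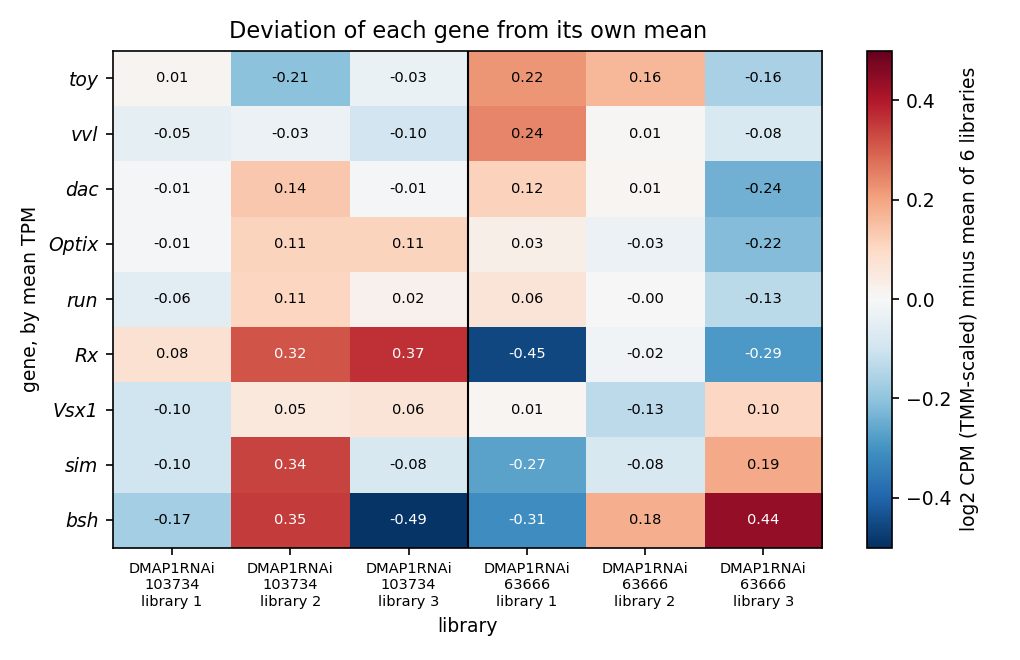
Log2 CPM, scaled by TMM, of each gene in each library minus that gene's mean over the 6 libraries; rows are genes by mean TPM, columns are libraries, the black line parts the column-name series, and red is above the mean. Rx is above its mean in the 3 DMAP1RNAi103734 libraries and below it in the other 3, while bsh and sim change sign within both series.

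Family relatives and partners place the 9 genes in context, and the values below are descriptions over the 6 libraries. The second Pax6 gene, ey, lies on the same chromosome as toy and had 56.9 ± 6.34 TPM (SD, n = 6), so toy was 2.60 times as high (2.37 to 2.88 in single libraries). The gene hbn, another Paired-like homeobox gene, begins 17637 bases after the end of Rx. It stood at 9.90, 11.7 and 10.7 TPM in the DMAP1RNAi103734 series and at 4.72, 8.76 and 9.85 TPM in the other, again without overlap. On TMM-scaled values, too, hbn was lower without overlap, as were 16.5% of all tested genes. Its log2 difference was -0.43 (SE 0.24, edgeR adjusted p = 0.286). The lowest library of Rx and of hbn was library 1 of the DMAP1RNAi63666 series, in which 32.9% of all tested genes were lowest.

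In the sine oculis family, Optix was 2.76 times as high as so and 5.61 times as high as Six4, and higher than both in 6 of 6 libraries. Among Runt-domain genes run was the highest, at 4.01 times RunxA, 2.55 times RunxB and 23.8 times lz, each in 6 of 6 libraries. The 2 genes for the beta subunit that binds Runt proteins were far apart, with Bgb at 81.8 ± 9.62 TPM and Bro at 0.941 ± 0.755 TPM (SD, n = 6), where Bro was counted between 2 and 25 times. Among POU genes vvl was 5.41 times nub, 7.40 times pdm2 and 3.96 times acj6, while pdm3 at 31.2 ± 5.67 TPM lay above vvl in 1 of 6 libraries. The bHLH-PAS partner of sim, tgo, had 55.8 ± 3.43 TPM, and sim stood at 0.073 times that level. Its relative trh, a tracheal and neuronal factor, had 16.1 ± 1.70 TPM, above sim in 6 of 6 libraries, and ss had 0.639 ± 0.369 TPM. The dac partner eya had 23.8 ± 3.35 TPM and lay below dac in 6 of 6 libraries.

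**Figure D4:**
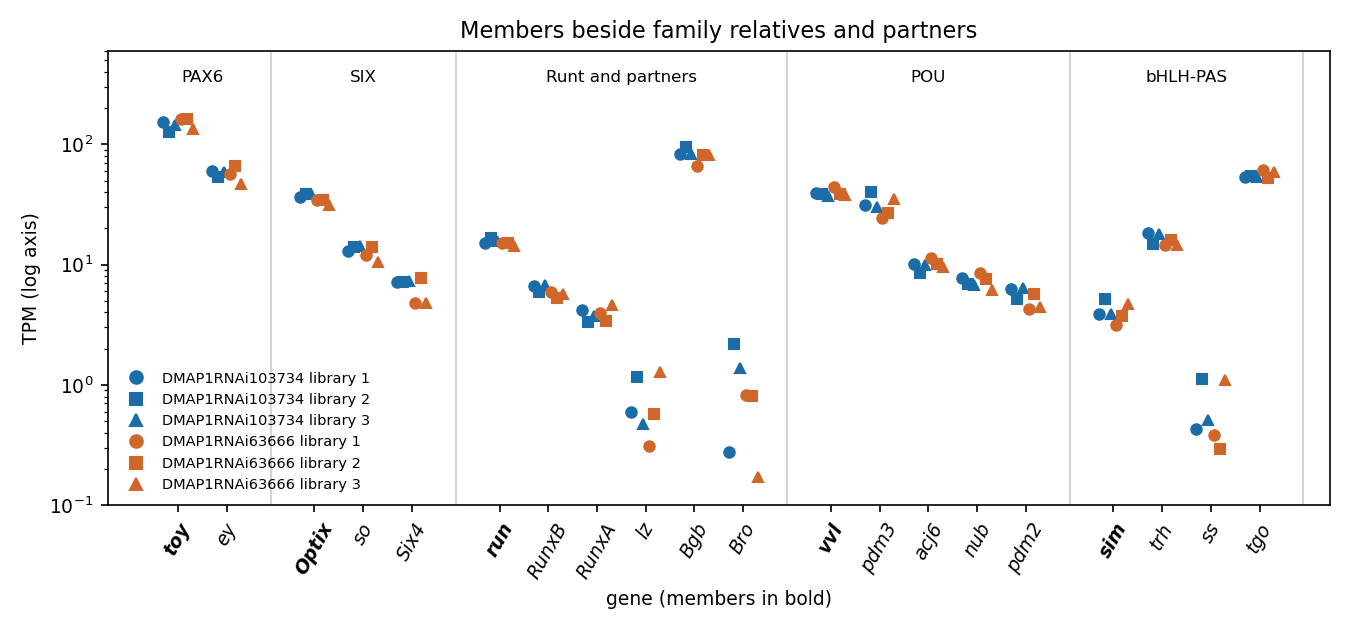
TPM (log axis) of the 9-gene list's Pax6, sine oculis, Runt, POU and bHLH-PAS members (bold) beside their relatives and partners in the 6 libraries; symbols are libraries as coloured by series and shaped by number. The genes toy, Optix, run and vvl have the highest means of their families, partners apart, and sim lies below trh and tgo.

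The wider set of optic lobe genes held 67 names in 4 overlapping lists, of which 64 were tested between the series. None was called by edgeR (0 higher, 0 lower), against 1.55% of all tested genes, and at an unadjusted p of 0.05 there were 7, 6 lower and 1 higher in the DMAP1RNAi63666 series, against 24.6%. DESeq2 called 1 of 65, dan, against 9.23%. Without overlap, 10 of 64 lay lower, near the 16.5% of all tested genes, and 2 higher, against 17.0%. The median log2 difference was -0.09, against 0.00 over all tested genes, with 38 of 64 below 0. It was -0.04 without library 2 of the DMAP1RNAi103734 series and library 1 of the other.

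By list, the medians were 0.02 for 10 spatial signals and partners, -0.01 for 26 medulla factors, -0.22 for 14 lamina and lobula plate factors and -0.15 for 22 relatives and partners. Without the 2 libraries named above, the last pair of medians was -0.12 and -0.07. No list had a member called by edgeR, against 1.55% of all tested genes. In the lamina and lobula plate list, the lamina gene gcm stood at 14.8, 14.3 and 13.5 TPM in the DMAP1RNAi103734 series and at 8.90, 11.6 and 12.4 TPM in the other (log2 difference -0.33, SE 0.13, edgeR adjusted p = 0.166). The paired genes dan and danr, nuclear factors of the eye and antenna, had log2 differences of -0.46 (SE 0.11) and -0.38 (SE 0.13), with edgeR adjusted p-values of 0.0885 and 0.148. In both, every DMAP1RNAi63666 library was below every DMAP1RNAi103734 library. Of the 14 genes of this list, 4 (gcm, eya, dan and danr) lay lower without overlap, against 16.5% of all tested genes. The gene ase, 1 of the 14, lay higher, against 17.0%. The genes gcm, dan and danr were named after their values were seen.

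Of the 7 distinct genes that had the 2 highest mean TPM values in a list, 6 had a log2 difference above 0 and Bgb one below 0, with none called by edgeR. In the spatial list the adhesion genes Fas2 (154.5 ± 7.37 TPM, SD, n = 6) and shg, the E-cadherin gene (113 ± 13.2 TPM), had log2 differences of 0.11 and 0.05. In the medulla list the zinc-finger homeobox gene zfh2 (135.0 ± 24.1 TPM) and the Nkx2-type homeobox gene scro (84.5 ± 17.0 TPM) had differences of 0.36 and 0.37, with edgeR adjusted p-values of 0.206 and 0.217. In the lamina list the proneural gene ase (128 ± 18.1 TPM) and the Sox gene SoxN (93.7 ± 7.14 TPM) had differences of 0.30 and 0.07, with edgeR adjusted p-values of 0.194 and 0.709. The gene ase is counted among the neuroblast markers too, so its level is not particular to the lamina. SoxN and Bgb led the relatives, and Bgb had a difference of -0.16 (edgeR adjusted p = 0.367).

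Markers of other cell types are given beside these values. Between the series, edgeR called none of the eye disc, tracheal and midline, nerve cord Hox, neuron, neuroblast or glial markers, against 1.55% of all tested genes. Of these markers DESeq2 called btl (DESeq2 adjusted p = 0.00929), mira (DESeq2 adjusted p = 0.0383) and Gat (DESeq2 adjusted p = 0.0234), against 9.23% of the genes to which it gave an adjusted p. The tracheal gene btl had a log2 difference of 0.61 (edgeR adjusted p = 0.0809). Of the 10 tracheal and midline markers, 5 had differences below 0. Among them 2, btl and rho, lay higher without overlap, against 17.0% of all tested genes, and 0 lower, against 16.5%. Summed eye disc markers were lower in every DMAP1RNAi63666 library than in any DMAP1RNAi103734 library, as was Rx. Most of this sum came from sca (mean 56.8 TPM) and sev (32.2 TPM). Among those tested, 6 of 8 log2 differences were below 0, with chp at 0.24 and B-H2 at 0.00. Of the 8 eye disc markers tested, 3 (sev, ro and sca) lay lower without overlap, against 16.5% of all tested genes, and 0 passed in edgeR. Their median log2 difference was -0.11, and 0.11 without the 2 libraries named above. The defining photoreceptor genes boss and ninaE were at no more than 11 and 5 counts in any library. Summed glial markers were 3596 to 3977 TPM in the DMAP1RNAi103734 series and 4032 to 4760 TPM in the other. Most of this sum came from Gs2 (mean 2227 TPM), Gat (837 TPM) and nrv2 (770 TPM), with log2 differences of 0.08, 0.64 and 0.30. Those of repo and wrapper were -0.16 and 0.21. Neuron markers summed to 965 to 1278 and 1194 to 1521 TPM, and neuroblast markers to 346 to 359 and 320 to 363 TPM. All 5 neuron markers and all 5 nerve cord Hox genes had log2 differences above 0, with medians of 0.24 and 0.22. Without the 2 libraries named above these medians were -0.01 and -0.14. The part of these cell types in the levels of the 9 genes was not tested.

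The genes whose profile was most like the mean standardized profile of the 9 genes over the 6 libraries were Miox (Pearson r = 0.983), net (0.978), CG13046 (0.973), CR45391 (0.972) and CG31365 (0.971), out of 10202 genes compared, 33 of them above 0.9. These values describe 6 libraries that share a series and carry no p. All 5 were highest in library 2 of the DMAP1RNAi103734 series, where Miox was counted 70 times, against 3 to 22 times elsewhere. The mean profile of the 9 genes was itself highest in that library, so this largely follows from how the 5 were chosen. Of the 9 genes, 4 were highest there on TMM-scaled values.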

How the data were processed

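Per the labels' protocols, brain polyA RNA went into TruSeq libraries. The deposited values are raw counts of read pairs per gene, per the file headers made with featureCounts 1.6.5 (strand option 2, paired ends, minimum overlap of 10 bases, 0.1 of the read and 0.01 of the feature) on BDGP6 annotation release 84; the header's folder names point to HISAT2. Its Length column is another deposited value, the exon bases of a gene. The submitters' processing notes name DESeq2 with no role. No source used here gives the aligner version. Counting used strand. Exons of toy overlap 1 transposon annotation on the opposite strand, and those of the other 8 genes overlap none.

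The table holds 3 further per-sample columns that match no labelled sample and were not used. All 6 RNAi columns belong to the labelled group, without a link to single samples. Rows were named by identifier (17216), by exon overlap of at least 0.8 (228) in Ensembl release 115, or not at all (46). No sequences were used. TPM and CPM were computed here from the counts. The series were compared with edgeR 4.0.16 (quasi-likelihood test, TMM, minimum count 10, Benjamini-Hochberg over 10211 genes); DESeq2 1.42.0 was an alternative. An interval is the estimate plus or minus the t quantile times SE; SE is the estimate divided by the square root of F. Poisson intervals cover counting error only. Between libraries the chi-square was at least 22.9 per degree of freedom, so none was a repeat of another. The test was checked on simulated counts. Named genes were the 9 genes, DMAP1, related genes called between the series, the 2 highest genes of each list and the 5 genes nearest in profile; others were chosen after their values were seen. The 9 genes and the lists were chosen with earlier results of these data known. The names Dl and dys matched no row, and Bro did not pass the filter. Another gene of the lists is counted in them but not reported here.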

Additional observations from a re-analysis of the deposited data

Results flagged for a closer look

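In 29 results checked (TPM of the named genes and summed TPM of 7 marker lists), 3 had 1 library whose gap to its nearest neighbour exceeded 0.625 of the range over 6 libraries, a limit that chance passes in about 1 of 20 groups. The level of vvl in library 1 of the DMAP1RNAi63666 series was 43.9 TPM, and the next was 39.1 TPM. Miox in library 2 of the DMAP1RNAi103734 series was 2.85 TPM, and the next was 1.05 TPM. The summed fat body markers in that library were 725 TPM, and the next was 386 TPM.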

How the results depend on the processing

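The count of genes called between the series was 158 in edgeR, 959 with DESeq2, 278 with the column-name number as a replicate block, 94 without library 2 of DMAP1RNAi103734 and library 1 of DMAP1RNAi63666 (added after the data were seen) and 69 to 457 without 1 library; the cause was not tested. Of those called in edgeR, 157 remained with DESeq2 and 138 with the block. Same-numbered libraries of the series deviated from their means with correlations of 0.24, -0.21 and -0.26, and differently numbered ones with -0.27 to 0.41. Deviations from a mean of 3 libraries sum to 0, so these values cannot decide whether the numbers pair the libraries. The share of called genes that were higher was 56.3%, and 38.5% with the block. Members called were 0, and 1 (Rx) with DESeq2, at a log2 difference of -0.4995 (adjusted p = 0.0372); without 1 library they were 0 in each case. Related genes called were 0, and 1 with DESeq2 and 1 with the block (dan in both); without 1 library they were 0 to 1 (toe). The small differences of Vsx1, run, dac and sim changed sign in some fits: without 1 library they ran from -0.0684 to 0.0501, -0.1026 to 0.0031, -0.1582 to 0.0238 and -0.2415 to 0.0507, and without both named libraries Vsx1 stood at 0.003 and sim at 0.1492. None of these was called in any fit. Outside the 9, differences without 1 library ran from -0.0489 to 0.1485 for shg, -2.4244 to 0.4987 for Miox, -0.1776 to 0.0418 for net, -0.2446 to 0.1391 for CG13046 (0.044 without both) and -0.0675 to 0.0108 for CG31365. The call of DMAP1 (log2 difference -0.62, edgeR adjusted p = 0.0453) was lost with the block (0.0507), without both libraries (0.127) and without any single library except library 2 of DMAP1RNAi63666 (0.0774 to 0.168), while the difference stood at -0.62, -0.54 and -0.68 to -0.56. With mitochondrial genes left out of the total, TPM of 7 of the 9 genes rose by more than their SD, to 175.998 for toy and 46.9 for vvl. Scaled by TMM, vvl scattered by 9.11% in place of 4.61%. In CPM without TMM scaling, it scattered by 2.60% when library 1 of DMAP1RNAi63666 was left out.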
